A study of Homo sapiens with 5 samples.

Results

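The comparison described here sets 1 HCT116 library made after an siRNA against SP3 beside 2 libraries made after a control siRNA, 3 of the 5 libraries in the series. HCT116 is a human colorectal cancer cell line, and an siRNA is a small duplex RNA that guides destruction of transcripts with a matching sequence. The members were taken by their labels alone, and all genes of the deposited tables entered the comparison. The other libraries received an siRNA against SP1, or the siRNAs against SP1 and SP3 together. They enter below where they help to describe the SP3 siRNA. All differences from the controls use the same 2 control libraries, so likeness between knockdown libraries in such differences is not independent. The stated purpose was to find genes that differ in expression after SP1 or SP3 is knocked down. The control libraries are labelled only as controls (NC), and they are called control siRNA libraries here. The siRNA sequences and amounts, the time between transfection and harvest, and the number of cultures are not stated in the sources at hand. There was 1 SP3 siRNA library, so its differences lack a replicate check, and whether the controls came from separate cultures is unknown. The p-values printed below therefore rest on the spread between the controls, with information on spread shared across genes. That spread may be technical, and it holds nothing on how SP3 siRNA libraries would vary.

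SP3 is a zinc finger transcription factor of the SP and KLF family. It shares its DNA target, the GC box, with SP1, and both proteins are found at many of the same promoters. SP3 can activate or repress, depending on the promoter and on its isoform, and attachment of the small protein SUMO to an inhibitory domain lowers its activity as an activator.

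Levels are given in FPKM, fragments per kilobase of transcript scaled to library depth. Differences are on the log2(FPKM + 1) scale, where 1 is a doubling for well expressed genes, with the standard error of the limma fit after ±. A gene was called where its Benjamini-Hochberg adjusted p in limma was under 0.05. The libraries held 14678068 to 15970519 counted reads. The controls differed from each other by a median of -0.03 over 11725 tested genes, with an SD of 0.133. Epithelial markers were present: EPCAM stood at 99.7 and 105 FPKM in both controls and 95.7 FPKM with the SP3 siRNA, and CDH1, KRT8, KRT18 and KRT19 were all above 40 FPKM in these 3 libraries. The intestinal markers CDX2 and VIL1 were low. CDX2 stood at 1.15 and 1.13 FPKM in the controls, and VIL1 at 0.0233 and 0.023 FPKM.

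The SP3 transcript was lower in the library labelled for it. SP3 stood at 13.3 and 13 FPKM in the controls, 5.42 FPKM with the SP3 siRNA, 14.3 FPKM with the SP1 siRNA and 6.67 FPKM with both siRNAs. Both libraries that received the SP3 siRNA lay below the 3 others, at less than 7 FPKM against more than 12. Against the controls the difference was -1.14 ± 0.09 (limma adjusted p = 4.36e-08), and it was -1.0 ± 0.10 where the SP3 siRNA was added to the SP1 siRNA. SP1 was also lower in the SP3 siRNA library, at 27.5 FPKM against 36.6 and 37.2 FPKM (log2 difference -0.41 ± 0.07, limma adjusted p = 0.000166), a call that was lost in the additive model described below (-0.23). Where the SP1 siRNA was already present, adding the SP3 siRNA left SP1 at 16.1 FPKM against 15.8 FPKM (0.02 ± 0.08).

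Other members of the family moved in both directions. Of 18 tested members 6 were called higher and 5 lower (median -0.06), with 3 and 2 in the additive model, while 29.6% of all tested genes were called higher and 32.0% lower, 61.6% in all, with a median of -0.02. The remaining 8 of 26 listed members did not reach 1 FPKM in any library. KLF2, which restrains growth and inflammation in endothelium and lymphocytes, stood at 6.27 and 6.68 FPKM in both controls and 33.6 FPKM with the SP3 siRNA (2.21 ± 0.08). KLF5, a growth-promoting factor of the intestinal crypt, stood at 26.9 and 28.3 FPKM and rose to 76.4 FPKM (1.44 ± 0.07). KLF7 rose from 4.07 and 3.88 to 9.05 FPKM (1.01 ± 0.10). The 3 genes differed in the libraries that received the SP1 siRNA. KLF2 was as high with the SP1 siRNA alone, at 33.5 FPKM, as with the SP3 siRNA, and KLF7 too, at 9.65 FPKM. KLF5 stayed at 27.7 FPKM with the SP1 siRNA and was at 48.2 FPKM with both. KLF10, a factor induced by TGF-beta, fell from 64.2 and 72.9 to 40.3 FPKM (-0.75 ± 0.07), and KLF13 rose from 13.8 and 13.9 to 24.7 FPKM (0.79 ± 0.08). SP2 and SP4, the nearest relatives expressed here, were not called (-0.01 ± 0.12 and -0.30 ± 0.13). In the additive model KLF5 kept its call, and KLF2 and KLF7 did not (1.07 and 0.52).

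**Figure D1:**
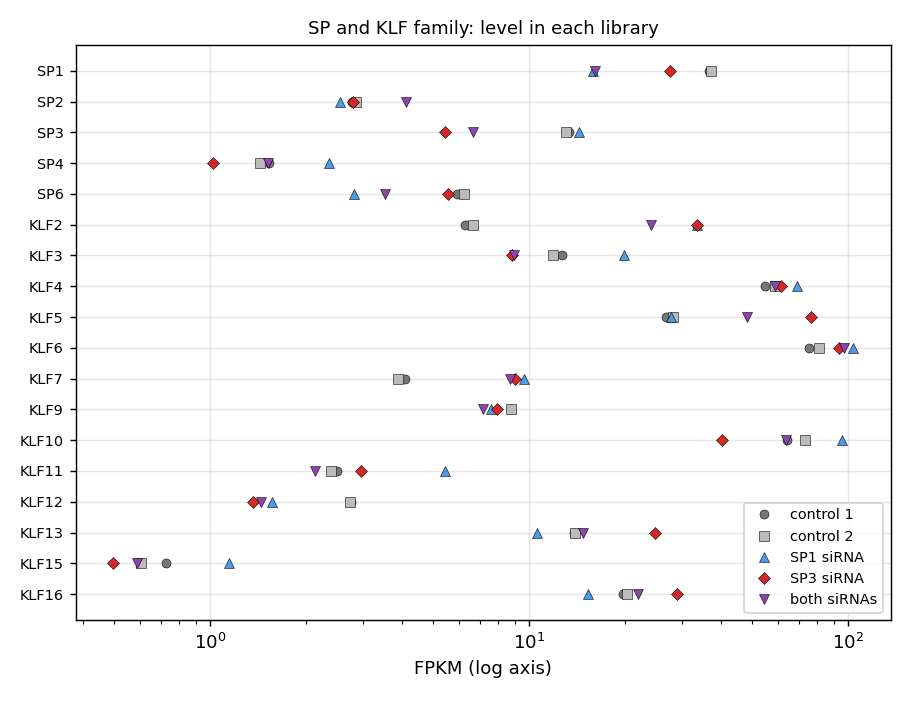
FPKM on a log axis for the 18 tested members of the SP and KLF family, 1 point per library. The SP3 siRNA library (red diamonds) lies left of both controls (grey) for SP3 and KLF10 and right of them for KLF2, KLF5 and KLF13.

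The response was wide and mostly small. In limma 3465 genes were called higher and 3757 lower, and 7222 of these 7222 had the same sign against each control taken alone. A call needs a difference that is large beside the gap between the controls, so this agreement of signs is largely built in. The excess of lower calls turned to 3883 higher and 3515 lower under median-ratio scaling, and to 2685 and 2287 when a mean of 5 FPKM was required. Of the called genes, 48.02% differed by less than 0.5. Differences of at least 1 were called for 352 genes higher and 532 lower. The number of calls depended on how the spread and the difference were estimated. In the main fit the only residual degree of freedom lies between the controls. An additive model, in which the departure of the double knockdown from the sum of the single differences also counts as spread, called 784 genes higher and 1018 lower, 15.4% of those tested. The additive value of a gene draws on the libraries with and without the SP1 siRNA. A call lost there can thus reflect another difference beside the SP1 siRNA as well as a wider spread. Without the filter on low values the main fit called 1294 genes. Folds were also counted without a test. Among 7082 genes that averaged 5 FPKM or more, 280 (3.95%) were at least 2-fold higher than each control and 396 (5.59%) at least 2-fold lower. Between the controls 1 gene was 2-fold apart. At least 4-fold, 15 genes were higher and 34 lower. Of the 163 genes that the naming rule picked, these 32 kept their call under every alternative that tested them, 31 of them under all 9 and HPSE under the others, since its mean was below 5 FPKM: SP3, VGF, ANKRD52, RGS2, GTF3C6, CPA4, SFN, SAA1, HPSE, SRPX, PLOD2, KRT7, CDCP1, KLF5, STMN3, IER5, AREG, ID3, AXL, AMOTL2, KRT80, KRT18, KRT10, DSG2, PLAU, TUBB2A, TAGLN2, ALDH18A1, TXNRD1, GDF15, ARID1A and ELF3.

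The largest rises included neuroendocrine, signalling and epithelial genes. SCG2, a granule protein of neuroendocrine cells, stood at 2.88 and 3.47 FPKM in the controls, 30.4 FPKM with the SP3 siRNA, 8.38 FPKM with the SP1 siRNA and 37.8 FPKM with both siRNAs (log2 difference 2.92 ± 0.10, limma adjusted p = 9.11e-12 for the SP3 siRNA against the controls). VGF, a secreted neuropeptide precursor, stood at 35.9 and 34.3 FPKM, 241 FPKM, 20.9 FPKM and 221 FPKM in the same order (log2 difference 2.75 ± 0.06, limma adjusted p = 4.60e-13). For both genes, picked as large rises over the controls, the libraries with the SP3 siRNA were the highest, with no overlap with the other 3. RGS2, which shortens signalling through G proteins, followed the same order with 47.7 and 49.2 FPKM, 238 FPKM, 18.7 FPKM and 77.4 FPKM (log2 difference 2.27 ± 0.06, limma adjusted p = 2.55e-12). The SP1 siRNA library had the lowest RGS2 level of the 5. CPA4, a secreted carboxypeptidase, rose from 90.9 and 97.8 to 416 FPKM (2.13 ± 0.06), with 110.2 FPKM under the SP1 siRNA and 280.3 FPKM under both. SFN, the epithelial 14-3-3 protein that holds cells in G2 after DNA damage, rose from 288 and 284 to 1212 FPKM (2.08 ± 0.05). For CPA4 and SFN the libraries again fell into a lower set without and a higher set with the SP3 siRNA. The genes of this paragraph were picked for a rise over the controls, so their place above the controls is given by the choice. The share of all tested genes that part in this way is not given here. ANKRD52, a regulatory subunit of protein phosphatase 6, rose from 5.85 and 6.02 to 36.3 FPKM (2.43 ± 0.08), and TMEM158, a membrane protein induced by RAS, from 77.7 and 91.8 to 408 FPKM (2.26 ± 0.08). GTF3C6, a subunit of the factor TFIIIC that recruits RNA polymerase III, rose from 2.15 and 2.05 to 12.98 FPKM (2.17 ± 0.10). CCNE1, the cyclin E1 that drives entry into S phase, rose from 15.4 and 17.1 to 78.2 FPKM (2.2 ± 0.08). TOMM22, a receptor for mitochondrial protein import, PRDX4, a peroxidase of the endoplasmic reticulum, and AMN1 rose by 2.38 ± 0.07, 2.07 ± 0.07 and 2.12 ± 0.09. All 3 were as high with the SP1 siRNA alone, at 57.8, 114 and 22.4 FPKM, as with the SP3 siRNA, at 49.8, 89.6 and 20.9 FPKM. SNCG, a synuclein, rose from 16.2 and 10.99 to 57.02 FPKM (2.02 ± 0.14). The gene with the largest fitted rise, EIF3CL (3.13 ± 0.20), is a near-identical copy of EIF3C, and counting can split reads between the copies, so its value is uncertain. The summed level of both copies was 10.02 and 7.30 FPKM in the controls and 26.01 FPKM with the SP3 siRNA.

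In the additive model 8 of the 15 largest rises passed the threshold, namely SCG2, VGF, ANKRD52, RGS2, CCNE1, GTF3C6, CPA4 and SFN. The rises that missed it there were EIF3CL (1.83), TOMM22 (1.25), TMEM158 (1.47), KLF2 (1.07), AMN1 (1.30), PRDX4 (1.13) and SNCG (1.43).

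The largest falls included secreted, surface and matrix-modifying proteins. SAA1, an acute phase protein, stood at 20.99 and 20.6 FPKM in the controls, 0.877 FPKM with the SP3 siRNA, 3.47 FPKM with the SP1 siRNA and 0.954 FPKM with both (log2 difference -3.54 ± 0.10, limma adjusted p = 3.19e-12). All 3 knockdown libraries lay far below the controls, lowest where the SP3 siRNA was present. HPSE, the heparanase that cleaves heparan sulfate in the matrix, stood at 7.92 and 8.58 FPKM, 0.663 FPKM, 1.53 FPKM and 0.433 FPKM in the same order (log2 difference -2.47 ± 0.12, limma adjusted p = 3.20e-10). SRPX, a sushi-repeat protein, had 14.97 and 15.8 FPKM, 2.11 FPKM, 7.92 FPKM and 1.88 FPKM (log2 difference -2.40 ± 0.10, limma adjusted p = 5.90e-11). For SRPX the SP1 siRNA library lay between the controls and the libraries with the SP3 siRNA. KRT7, a keratin of simple epithelia, fell from 63.2 and 69.3 to 12.1 FPKM (-2.36 ± 0.08). CDCP1, a surface protein phosphorylated by SRC kinases, fell from 75.7 and 74.1 to 15.7 FPKM (-2.18 ± 0.07). PLOD2, the lysyl hydroxylase that sets collagen cross-links, fell from 58.7 and 61.3 to 10.8 FPKM (-2.37 ± 0.07). Metabolic genes among the falls were PFKFB4, a regulator of glycolytic flux, from 54.2 and 52.6 to 8.70 FPKM (-2.49 ± 0.07), CA2, carbonic anhydrase 2, from 24.9 and 23.6 to 4.89 FPKM (-2.10 ± 0.09), and TMEM97, the sigma-2 receptor linked to cholesterol handling, from 26.2 and 23.8 to 5.09 FPKM (-2.09 ± 0.09). KCTD11, an adaptor of a ubiquitin ligase, fell from 26.6 and 27.6 to 4.61 FPKM (-2.32 ± 0.09). The mitotic motors KIF20A and KIF18B and the topoisomerase TOP2A fell by 2.40 ± 0.13, 2.17 ± 0.12 and 2.19 ± 0.10, and each was also lower than both controls with the SP1 siRNA alone, at 2.23, 1.89 and 10.3 FPKM. S100A9 and LYZ, proteins of neutrophils and macrophages that some epithelia also make, had 11.5 and 13.9 FPKM and 11.2 and 12.2 FPKM in the controls and 0.108 and 0.124 FPKM with the SP3 siRNA. Both belong to the leukocyte markers described below. The falls that passed in the additive model were S100A9, SAA1, HPSE, SRPX, PLOD2, KRT7 and CDCP1, 7 of 15. Those of LYZ (-2.11), PFKFB4 (-1.68), KIF20A (-1.31), KCTD11 (-1.19), TOP2A (-1.15), KIF18B (-1.02), CA2 (-1.38) and TMEM97 (-1.36) missed its threshold.

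**Figure D2:**
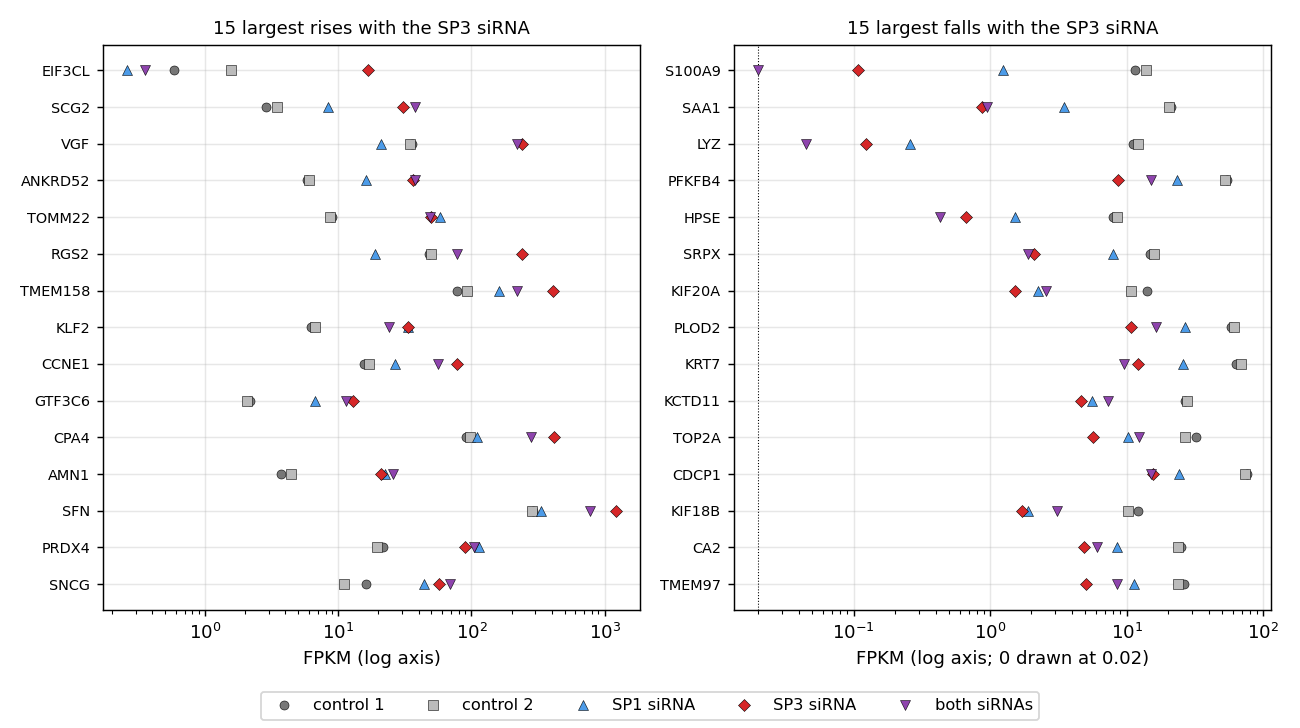
FPKM on a log axis in each of the 5 libraries for the 15 largest rises (left) and 15 largest falls (right) with the SP3 siRNA; a value of 0 is drawn at 0.02. Red diamonds (SP3 siRNA) lie apart from both controls in every row; for TOMM22, KLF2, PRDX4 and AMN1 the SP1 siRNA library (blue) lies as far from the controls as the SP3 siRNA library.

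Transcripts that mark leukocytes were present at low levels in both controls, and their summed level was lower in all 3 knockdown libraries, although the labels give a single cell line. All 25 listed markers had at least 1 read in a control, and 24 of 25 were lower with the SP3 siRNA than in each control. Summed over all 25, the level was 124.4 and 125.3 FPKM in the controls and 98.6 FPKM with the SP3 siRNA. It was 68.8 FPKM with the SP1 siRNA and 80.95 FPKM with both. Without CD68, which epithelial cells also express, the sum was 62.4 and 66.6 FPKM in the controls and 4.55 FPKM with the SP3 siRNA. It was then 12.6 FPKM with the SP1 siRNA and 5.70 FPKM with both. Leaving out S100A9 and LYZ too, the sum was 39.8 and 40.5 FPKM in the controls, 4.32 FPKM with the SP3 siRNA, 11.1 FPKM with the SP1 siRNA and 5.65 FPKM with both. Of 16 tested members 1 were called higher and 15 lower (median -1.43), with 1 and 4 in the additive model. A member was tested where any library reached 1 FPKM. Low markers can thus enter through the controls alone, as can CD14, TYROBP and NKG7, and this favours lower calls and a negative median. The member that was higher was CD68, from 61.95 and 58.7 to 94.1 FPKM (0.63 ± 0.06). The antigen presentation chaperone CD74 fell from 6.94 and 6.72 to 0.566 FPKM (-2.32 ± 0.12) and LAPTM5, a lysosomal protein of blood cells, from 3.55 and 3.56 to 0.14 FPKM (-2.0 ± 0.13). With the SP3 siRNA 8 of the 25 were listed at 0, among them CD3D, CD3E, CD14 and TYROBP. Against a floor of 3 reads in that library, CD14 was at least 5.22-fold lower than the mean of the controls and TYROBP at least 5.57-fold. With genes at 0 set to that floor the list median was -1.33. In bulk RNA, fewer cells of a type and less RNA per cell cannot be told apart. Whether the control and knockdown libraries came from the same culture or sequencing run is not known here. A difference of culture or run cannot be told apart from an effect of the siRNAs. S100A9 and LYZ are members of this list. The part of these transcripts in the falls of the interferon and antigen presentation genes was not tested. Of the fibroblast markers 3 of 12 and of the endothelial markers 1 of 8 reached 1 FPKM. COL1A1 and TWIST1 were not called (-0.09 ± 0.10 and -0.22 ± 0.15). ACTA2, smooth muscle actin, was called higher, from 5.30 and 4.67 to 10.02 FPKM (0.88 ± 0.10), and ESAM, an endothelial adhesion molecule, lower, from 4.57 and 5.05 to 2.85 FPKM (-0.59 ± 0.12). Neither passed in the additive model (0.42 and -0.46).

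Since SP3 binds GC boxes, the 250 bases before the start of each gene were searched for GGGCGG on both strands (CCGCCC on the printed strand), in RefSeq promoters of GRCh38.p14. Of 11725 tested genes, 9582 matched the promoter table and 6792 had a single start. A GC box was present in 76.5% of the genes called lower, 71.1% of those not called and 69.05% of those called higher, against 72.2% of all tested genes with 1 start and 40.9% of all such genes in the table, whether expressed here or not. The shares of called genes also moved with the number of boxes. Of 1888 genes without a box 27.01% were called lower and 33.7% higher, and of 1897 genes with 3 or more boxes 35.95% were lower and 27.8% higher. The median difference went from 0.03 to -0.05, a small step beside quartiles of -0.28 and 0.37 in the genes without a box. Base composition moved along with it: the median GC content of the window was 58.4% without a box and 74% with 3 or more. The part of GC content in these shares was not tested. A match of these letters is a description of the window and not a site of binding.

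**Figure D3:**
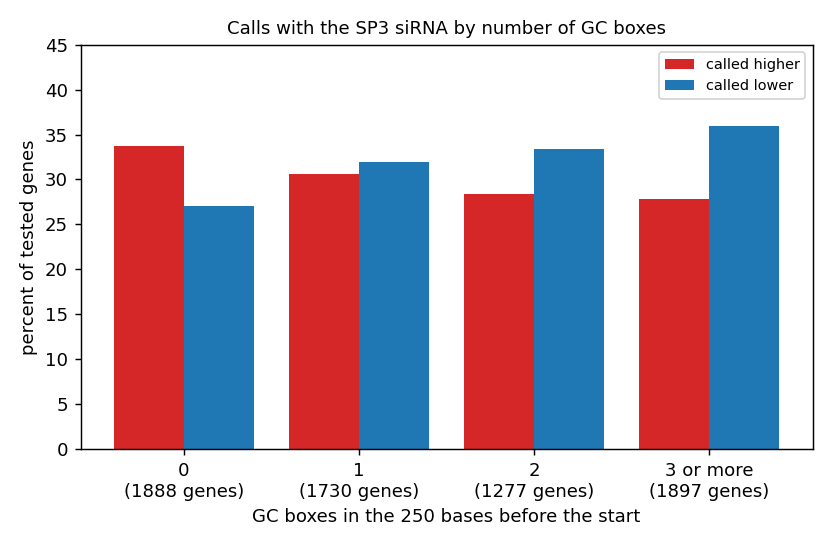
Percent of tested genes with 1 start that were called higher (red) or lower (blue) with the SP3 siRNA, by the number of GC boxes in the 250 bases before the start; gene numbers are in brackets. The share called lower goes from 27.0% without a box to 36.0% with 3 or more, and the share called higher from 33.7% to 27.8%.

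The windows below are those of the 3 largest rises and 3 largest falls that had a single start in the table, shown because they place the GC boxes of the strongest responders. Capitals mark GGGCGG and CCGCCC, and each sequence runs from base 250 to base 1 before the start. The window of VGF is chr7:101165570-101165819 on the minus strand, ANKRD52 at chr12:56258385-56258634 on the minus strand and TOMM22 at chr22:38681707-38681956 on the plus strand. The windows of the falls are S100A9 at chr1:153357604-153357853 on the plus strand, PFKFB4 at chr3:48556804-48557053 on the minus strand and SRPX at chrX:38220872-38221121 on the minus strand.
VGF: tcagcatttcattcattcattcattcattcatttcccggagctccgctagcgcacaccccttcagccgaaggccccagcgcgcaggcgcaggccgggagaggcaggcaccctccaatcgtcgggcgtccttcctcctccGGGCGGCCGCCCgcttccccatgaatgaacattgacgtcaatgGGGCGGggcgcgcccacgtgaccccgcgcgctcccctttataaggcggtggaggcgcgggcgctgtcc
ANKRD52: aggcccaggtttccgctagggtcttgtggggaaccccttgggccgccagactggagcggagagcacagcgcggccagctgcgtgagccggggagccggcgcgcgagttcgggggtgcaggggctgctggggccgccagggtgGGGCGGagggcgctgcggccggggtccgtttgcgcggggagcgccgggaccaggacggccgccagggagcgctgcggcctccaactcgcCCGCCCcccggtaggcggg
TOMM22: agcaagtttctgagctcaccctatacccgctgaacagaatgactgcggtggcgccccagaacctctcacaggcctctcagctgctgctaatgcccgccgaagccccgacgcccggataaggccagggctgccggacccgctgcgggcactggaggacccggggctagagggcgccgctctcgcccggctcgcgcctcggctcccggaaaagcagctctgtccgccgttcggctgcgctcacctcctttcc
S100A9: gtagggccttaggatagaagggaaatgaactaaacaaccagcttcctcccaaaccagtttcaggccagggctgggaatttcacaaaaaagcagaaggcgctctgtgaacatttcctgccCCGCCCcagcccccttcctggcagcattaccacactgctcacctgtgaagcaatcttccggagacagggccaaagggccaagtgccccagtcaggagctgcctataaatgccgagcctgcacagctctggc
PFKFB4: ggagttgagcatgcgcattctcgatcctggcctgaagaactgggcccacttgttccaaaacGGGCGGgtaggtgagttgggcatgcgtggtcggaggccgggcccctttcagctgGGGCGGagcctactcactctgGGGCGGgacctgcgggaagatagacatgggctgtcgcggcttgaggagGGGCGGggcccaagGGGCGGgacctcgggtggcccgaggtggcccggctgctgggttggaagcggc
SRPX: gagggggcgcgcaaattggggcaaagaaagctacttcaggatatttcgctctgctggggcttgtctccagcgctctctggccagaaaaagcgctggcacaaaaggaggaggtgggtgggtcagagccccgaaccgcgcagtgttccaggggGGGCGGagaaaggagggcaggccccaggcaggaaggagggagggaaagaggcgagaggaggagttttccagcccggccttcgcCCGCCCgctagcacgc
VGF, which rose 6.87-fold, has 3 boxes, and ANKRD52, which rose 6.12-fold, has 2. TOMM22 has none and rose 5.67-fold. Among the falls, PFKFB4 has 5 boxes, SRPX 2 and S100A9 1. Rises and falls thus both occurred at promoters with GC boxes. The VGF window also holds TGACGTCA, the letters of the cyclic AMP response element, looked for after its values had been seen; 3.43% of all tested genes with 1 start hold these letters, 3.55% of those called higher and 3.04% of those called lower.

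Gene groups were read from lists of 35 pathways and cell types, beside the 29.6% higher and 32.0% lower among all tested genes. Splits of a list by role were made after the values had been seen. All tested members of a list are counted, whether their differences are small or large.

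Genes of the machinery that SP3 works with moved both ways. Of the SUMO pathway's 17 tested members 8 were called higher and 3 lower (median 0.19), with 1 and 0 in the additive model. SUMO2, which is attached to SP3 and many other proteins, rose from 255 and 250.1 to 360 FPKM (0.51 ± 0.05). The partners of the SUMO activating enzyme moved apart: SAE1 rose from 29.9 and 30.02 to 44.9 FPKM (0.57 ± 0.07), and UBA2 fell from 44.1 and 42.2 to 29.4 FPKM (-0.54 ± 0.07). The histone deacetylases and repressor complexes were near the background. Of 26 tested members 9 were called higher and 8 lower (median 0.01), with 2 and 0 in the additive model. HDAC1, the deacetylase found with SP proteins, stood at 32.1 and 30.4 FPKM in the controls, 76.98 FPKM with the SP3 siRNA, 75.7 FPKM with the SP1 siRNA and 90.2 FPKM with both (1.27 ± 0.07). All 3 knockdown libraries exceeded both controls, which these comparisons share. KDM1A, the lysine demethylase LSD1 of the CoREST complex, fell from 36.4 and 36.6 to 18.8 FPKM (-0.92 ± 0.07). RBBP7, a histone chaperone, rose by 0.60 ± 0.07. Of the Mediator and TFIID coactivators' 47 tested members 23 were called higher and 11 lower (median 0.19), with 4 and 4 in the additive model. MED1, the subunit that contacts nuclear receptors, fell from 12.5 and 11.5 to 4.85 FPKM (-1.15 ± 0.10), and MED15 fell from 24.9 and 25.3 to 12.4 FPKM (-0.96 ± 0.08). MED8 rose from 23.6 and 23.8 to 47.01 FPKM (0.96 ± 0.07) and TAF13 from 27.9 and 28.3 to 56 FPKM (0.97 ± 0.07). The largest TFIID subunit, TAF1, was not called (0.06 ± 0.10). Passing genes in the additive model were RBBP7, MED15, MED8 and TAF13; the others gave SUMO2 (0.30), SAE1 (0.40), UBA2 (-0.40), HDAC1 (0.83), KDM1A (-0.65) and MED1 (-0.80).

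**Figure D4:**
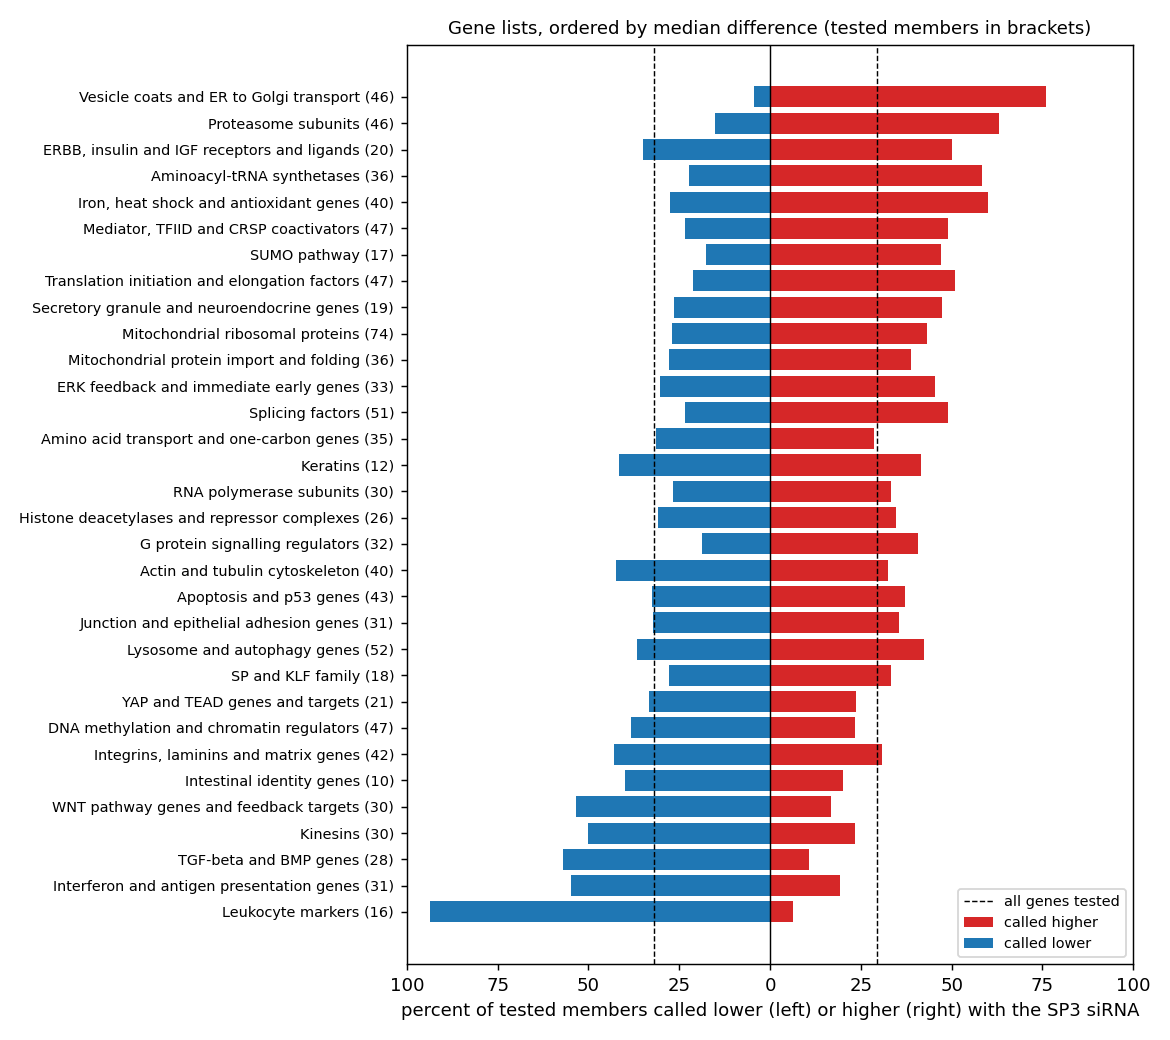
Percent of the tested members of each gene list called lower (blue, left) or higher (red, right) with the SP3 siRNA, lists with at least 10 tested members, ordered by median difference; dashed lines mark all tested genes (32.0% lower, 29.6% higher). Vesicle coat and proteasome genes extend furthest to the right, and leukocyte markers, TGF-beta and interferon genes to the left.

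Genes of regulated secretion and G protein signalling held some of the largest rises. Of the secretory granule list, 34 genes in all, 19 were tested, and of these 9 were called higher and 5 lower (median 0.17), with 7 and 1 in the additive model. Besides SCG2, VGF and SNCG, the synaptic vesicle protein SYP rose from 0.917 and 0.827 to 5.17 FPKM (1.72 ± 0.12) and the granin CHGB from 0 and 0.0237 to 1.18 FPKM (1.11 ± 0.14). SYP and CHGB stood under 1 FPKM in the controls and entered the test through knockdown libraries alone. Such entry favours higher calls and a positive median. The list's median was 0.16 when a mean of at least 5 FPKM was required. STMN3, a neuronal stathmin, rose from 34.2 and 35.5 to 69.03 FPKM (0.97 ± 0.07). REST, the repressor of neuronal genes, was not called (-0.22 ± 0.11), and PAM, the enzyme that amidates neuropeptides, fell from 76.8 and 79.05 to 46.5 FPKM (-0.73 ± 0.06). Of the G protein signalling list's 32 tested members 13 were called higher and 6 lower (median -0.00), with 5 and 2 in the additive model. AKAP12, a scaffold for protein kinase A, stood at 239.9 and 223 FPKM in the controls, 79.2 FPKM with the SP3 siRNA, 529.6 FPKM with the SP1 siRNA and 132 FPKM with both (-1.54 ± 0.06). The SP1 siRNA library was the highest of the 5 and the SP3 siRNA library the lowest. RGS10 fell from 114 and 119 to 61.1 FPKM (-0.92 ± 0.06), opposite to RGS2. GNAI2, an inhibitory G protein subunit, rose from 59.6 and 59.4 to 118 FPKM (0.98 ± 0.06). STMN3, AKAP12, RGS10 and GNAI2 kept their calls in the additive model.

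The growth factor ligand AREG rose while its receptor EGFR fell. All 4 expressed ligands of the EGF receptor were called higher, and 1 of them, AREG, in the additive model. AREG, amphiregulin, stood at 237 and 237 FPKM in the controls, 769.5 FPKM with the SP3 siRNA, 358 FPKM with the SP1 siRNA and 709 FPKM with both (log2 difference 1.69 ± 0.05, limma adjusted p = 4.39e-12). HBEGF rose from 8.25 and 8.88 to 16.4 FPKM (0.87 ± 0.09), TGFA from 16.1 and 15.6 to 20.8 FPKM (0.37 ± 0.08) and EREG from 35.3 and 32.97 to 50.8 FPKM (0.56 ± 0.07). EGFR itself stood at 18.8 and 17.4 FPKM and fell to 4.41 FPKM (log2 difference -1.82 ± 0.10, limma adjusted p = 6.22e-10). It was at 9.24 FPKM with the SP1 siRNA and 3.34 FPKM with both, so that all knockdown libraries lay below the controls. In the insulin and IGF arm, the receptor IGF1R fell from 5.10 and 5.15 to 1.75 FPKM (-1.15 ± 0.11) and the binding protein IGFBP2 from 74.8 and 80.1 to 29.9 FPKM (-1.34 ± 0.07). Over both arms, of 20 tested members 10 were called higher and 7 lower (median 0.28), with 2 and 4 in the additive model. The median of this list turned negative in the additive model when a control was left out, at -0.0187 and -0.0256. Of the ERK feedback and immediate early genes' 33 tested members 15 were called higher and 10 lower (median 0.10), with 11 and 6 in the additive model. The immediate early factors EGR1 and FOSB, which serum induces within minutes, rose from 23.4 and 29.98 to 67.6 FPKM (1.32 ± 0.10) and from 3.68 and 4.46 to 11.7 FPKM (1.32 ± 0.11). IER5 rose from 41.6 and 41.8 to 118 FPKM (1.49 ± 0.06). SPRY1, a feedback inhibitor of receptor signalling, fell from 7.35 and 8.10 to 2.42 FPKM (-1.35 ± 0.11), and the phosphatase DUSP1 rose from 129 and 167 to 204 FPKM (0.48 ± 0.10). Of 10 AP-1 and EGR genes 6 were called higher and 1 lower, with 4 and 1 in the additive model. The controls differed from each other for EGR1 and DUSP1, by 0.34 and 0.37. HBEGF, TGFA and DUSP1 missed the threshold in the additive model (0.61, 0.08 and 0.46), and EREG had the other sign there (-0.16), while AREG, EGFR, IGFBP2, EGR1, FOSB, IER5 and SPRY1 passed it.

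Receptors and effectors of WNT and TGF-beta signalling were more often lower than higher. Of the WNT list's 30 tested members 5 were called higher and 16 lower (median -0.24), with 2 and 3 in the additive model. Of the 5 tested Frizzled receptors 4 were called lower, 1 of them in the additive model, and both co-receptors were, with LRP5 going from 19.02 and 20.2 to 11.8 FPKM (-0.68 ± 0.08). LGR4, the receptor for R-spondins, fell from 8.87 and 8.72 to 3.80 FPKM (-1.03 ± 0.10). The secreted inhibitor DKK1 rose from 122 and 107 to 198 FPKM (0.79 ± 0.07) and the nuclear effector TCF7L2 from 33.6 and 32.8 to 51.3 FPKM (0.61 ± 0.07). AXIN2, the classic feedback target, was not called (-0.12 ± 0.12). Of the TGF-beta and BMP list's 28 tested members 3 were called higher and 16 lower (median -0.32), with 1 and 9 in the additive model. The ligand TGFB1 fell from 27.7 and 28.97 to 19.1 FPKM (-0.54 ± 0.07) and the co-receptor TGFBR3 from 9.45 and 9.75 to 4.58 FPKM (-0.93 ± 0.10). The inhibitory SMAD7 fell from 15.2 and 16.8 to 4.80 FPKM (-1.55 ± 0.10), and of 7 SMAD genes 4 were called lower and 0 higher, with 2 and 0 in the additive model. The target genes of the ID family went apart: ID3 fell from 57.8 and 60.5 to 23.3 FPKM (-1.31 ± 0.07), and ID2 rose from 69.4 and 66.7 to 137 FPKM (1.0 ± 0.06). The YAP and TEAD list was near the background, with 5 higher and 7 lower of 21 (median -0.07). The members named next are its extremes. AXL, a receptor tyrosine kinase, stood at 24.2 and 22.9 FPKM in the controls, 4.77 FPKM with the SP3 siRNA, 22.3 FPKM with the SP1 siRNA and 6.23 FPKM with both (log2 difference -2.09 ± 0.09, limma adjusted p = 4.51e-11). The libraries with the SP3 siRNA were separate from the 3 without it. For the SP3 siRNA alone against the controls, this follows from the choice of an extreme member. AMOTL2, a YAP target and inhibitor, fell from 29.9 and 28.2 to 9.72 FPKM (-1.49 ± 0.08), and YAP1 rose from 15.1 and 12.8 to 28.6 FPKM (0.99 ± 0.09) together with its kinase LATS2 (1.08 ± 0.09). LGR4, SMAD7 and YAP1 missed the threshold in the additive model (-0.74, -0.94 and 0.72). The genes LRP5, DKK1, TCF7L2, TGFB1, TGFBR3, ID3, ID2, AXL, AMOTL2 and LATS2 passed it.

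Epithelial structural genes changed unevenly. Of the keratin list's 12 tested members 5 were called higher and 5 lower (median 0.03), with 2 and 4 in the additive model. KRT18, the partner of KRT8 in the filaments of simple epithelia, stood at 750.4 and 739.8 FPKM in the controls, 284 FPKM with the SP3 siRNA, 408 FPKM with the SP1 siRNA and 154 FPKM with both (log2 difference -1.39 ± 0.05, limma adjusted p = 2.27e-11). KRT8 rose over the same comparison, from 1749 and 1799 to 2361 FPKM (0.41 ± 0.05). KRT80 fell from 14.1 and 14.2 to 4.21 FPKM (-1.54 ± 0.10), and KRT10, a keratin of stratified epithelium, rose from 19.8 and 20.4 to 38.4 FPKM (0.90 ± 0.07). Of the junction list's 31 tested members 11 were called higher and 10 lower (median -0.02), with 1 and 4 in the additive model. DSG2, the desmosomal cadherin, fell from 53.8 and 53.8 to 16.2 FPKM (-1.67 ± 0.07). The tight junction protein CLDN4 fell from 629.8 and 625 to 224 FPKM (-1.48 ± 0.05) and stood at 221 FPKM with the SP1 siRNA. CLDN3 fell by 0.92 ± 0.10 and CLDN15 rose by 0.88 ± 0.10. CDH1, the E-cadherin of adherens junctions, differed little, from 48.6 and 49.1 to 41.2 FPKM (-0.24 ± 0.07). ELF3, an epithelial transcription factor of the intestine, stood at 267 and 267 FPKM and fell to 90.9 FPKM (log2 difference -1.54 ± 0.06, limma adjusted p = 1.44e-11), with 246 FPKM under the SP1 siRNA and 153 FPKM under both. Of 30 intestinal identity genes 10 were tested, and 2 were called higher and 4 lower. CLDN4, CLDN15 and CDH1 missed the additive threshold (-0.97, 0.55 and -0.14).

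Matrix, cytoskeleton and motor genes followed. Of the integrin, laminin and matrix list's 42 tested members 13 were called higher and 18 lower (median -0.18), with 5 and 8 in the additive model. All 5 lysyl and prolyl hydroxylases that modify collagen were called lower, with a median of -0.80 and PLOD2 as the extreme, and 3 of them in the additive model. PLAU, the urokinase that activates plasminogen, fell from 82.9 and 87.9 to 27.9 FPKM (-1.58 ± 0.07), ITGB5 from 25.9 and 25.4 to 9.54 FPKM (-1.34 ± 0.08) and THBS1, thrombospondin 1, from 22.6 and 26.2 to 7.12 FPKM (-1.64 ± 0.10). The protease inhibitors of the TIMP family divided: TIMP1 rose from 66.1 and 67.5 to 152 FPKM (1.18 ± 0.06), while TIMP2 and TIMP3 fell by 0.66 ± 0.07 and 0.99 ± 0.13. Of the actin and tubulin list's 40 tested members 13 were called higher and 17 lower (median -0.01), with 7 and 4 in the additive model. TMSB10, which binds actin monomers, was among the most abundant transcripts and rose from 4774 and 4814 to 12345 FPKM (log2 difference 1.36 ± 0.05, limma adjusted p = 2.25e-11). TPM4, a tropomyosin, rose from 35.2 and 36.3 to 105 FPKM (1.52 ± 0.06), and TAGLN2, an actin-bundling protein, fell from 141 and 146 to 56.1 FPKM (-1.34 ± 0.06). ACTB, often used as a reference gene, rose from 1596 and 1778 to 2283 FPKM (0.44 ± 0.06). Among tubulins TUBB2A rose from 17.2 and 17.4 to 49.4 FPKM (1.46 ± 0.07) and TUBB fell from 189 and 183 to 78.98 FPKM (-1.22 ± 0.06); tubulin genes are alike in sequence, and counting can share reads among them. Of the kinesin list's 30 tested members 7 were called higher and 15 lower (median -0.29), with 2 and 1 in the additive model. All 12 kinesins with a role in mitosis were called lower (median -1.25), and of 8 transport kinesins 5 were called higher and 1 lower (median 0.55), with 1 and 0 in the additive model. None of the 12 passed in the additive model, and the list's median between the controls was -0.10. With a mean of at least 5 FPKM required, the median of the kinesin list with the SP3 siRNA was -0.04. KIF11, the motor that separates spindle poles, fell from 8.01 and 6.44 to 1.59 FPKM (-1.66 ± 0.13) and KIF2C from 21.7 and 17.3 to 6.41 FPKM (-1.46 ± 0.11). PLOD2, PLAU, TMSB10, TAGLN2, ACTB and TUBB2A passed in the additive model, and ITGB5 (-0.81), THBS1 (-0.92), TPM4 (0.97), KIF11 (-0.97) and KIF2C (-0.53) did not.

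Secretory pathway genes had the largest share called higher among the lists with at least 10 tested members. Of the vesicle coat and ER to Golgi list's 46 tested members 35 were called higher and 2 lower (median 0.37), with 9 and 0 in the additive model. For the COPII coat, which carries cargo out of the endoplasmic reticulum, of 11, 8 were called higher and 1 lower, with 4 and 0 in the additive model. For the COPI coat, which returns cargo to it, of 8, 7 were called higher and 0 lower, and all 5 TMED cargo receptors were called higher. In the additive model 1 COPI gene and 0 TMED genes passed. SEC13, a COPII coat and nuclear pore subunit, stood at 33.2 and 31.4 FPKM in the controls, 75.8 FPKM with the SP3 siRNA, 30.6 FPKM with the SP1 siRNA and 52.8 FPKM with both (log2 difference 1.21 ± 0.07, limma adjusted p = 1.36e-09). ARF4 rose from 92.7 and 96.8 to 188 FPKM (0.98 ± 0.06). The Golgi tethers GOLGA2 and USO1 rose from 18.6 and 19.4 to 42.3 FPKM (1.11 ± 0.07) and from 30.6 and 28.3 to 61.7 FPKM (1.04 ± 0.07). Lysosomal and autophagy genes split. Over the whole list, of 52 tested members 22 were called higher and 19 lower (median -0.05), with 4 and 7 in the additive model. For the lysosomal hydrolases, of 16, 3 were called higher and 9 lower, with 0 and 5 in the additive model; NEU1, the sialidase, fell from 65.8 and 70.03 to 27.97 FPKM (-1.25 ± 0.07) and CTSZ, cathepsin Z, from 67.6 and 71.5 to 34.5 FPKM (-0.99 ± 0.07). All 4 genes of the ATG8 family, which coats autophagosomes, were called higher (median 0.56), and 2 of them in the additive model. ATG12 rose from 43.3 and 41.5 to 97.05 FPKM (1.18 ± 0.06) and ATP6V0D1, a subunit of the proton pump, from 12.5 and 13.3 to 26.6 FPKM (0.99 ± 0.08). LAMP1, the most used lysosomal marker, fell from 89.9 and 97.3 to 80.3 FPKM (-0.22 ± 0.07), but its additive value was 0.117, of the other sign. SEC13, ARF4, CTSZ and ATP6V0D1 passed in the additive model, and GOLGA2 (0.67), USO1 (0.54), NEU1 (-0.57) and ATG12 (0.58) did not.

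Most constitutive proteasome genes were called higher, and the 4 listed proteasome genes that interferon induces were called lower. Of the proteasome list's 46 tested members 29 were called higher and 7 lower (median 0.30), with 7 and 4 in the additive model. Of the 14 constitutive core subunits 12 were called higher and none lower, and of the 6 ATPases 5 were higher and none lower. In the additive model 3 core subunits and 1 ATPase were higher, and 3 of the 4 interferon-inducible genes were lower. PSMC3, an ATPase of the regulatory particle, stood at 16.5 and 14.4 FPKM in the controls, 53.7 FPKM with the SP3 siRNA, 30.96 FPKM with the SP1 siRNA and 46.9 FPKM with both (log2 difference 1.74 ± 0.08, limma adjusted p = 1.84e-10). The immunoproteasome subunits PSMB9 and PSMB10 fell from 11.6 and 11.6 to 5.92 FPKM (-0.87 ± 0.09) and from 13.7 and 11.9 to 5.91 FPKM (-0.99 ± 0.10), and the activator subunit PSME2 from 83.2 and 75.5 to 47.8 FPKM (-0.72 ± 0.07). The assembly chaperone PSMG1 fell from 8.73 and 8.57 to 4.50 FPKM (-0.81 ± 0.10). Of the interferon and antigen presentation list's 31 tested members 6 were called higher and 17 lower (median -0.33), with 2 and 4 in the additive model. The list's median was -0.02 when a mean of at least 5 FPKM was required, so its better expressed members showed little shift as a set. OAS3, which makes the signal for RNase L, fell from 19.1 and 19.2 to 6.08 FPKM (-1.51 ± 0.09), IFI6 from 20.5 and 22.2 to 7.68 FPKM (-1.36 ± 0.09) and the factor IRF1 from 21.6 and 21.3 to 9.63 FPKM (-1.08 ± 0.08). TAP1 and TAPBP, which load peptides on class I molecules, fell by 0.67 ± 0.07 and 0.91 ± 0.07. Another interferon regulatory factor, IRF7, rose from 15.7 and 15.8 to 36.8 FPKM (1.17 ± 0.08). The summed leukocyte markers without CD68 moved with these falls, from 62.4 and 66.6 FPKM to 4.55 FPKM, and their part in them was not tested. With CD68, which rose, the sum went from 124.4 and 125.3 to 98.6 FPKM. PSMC3, PSMB9, PSMB10, PSMG1 and IRF7 passed in the additive model, and OAS3 (-0.96), IFI6 (-0.90) and IRF1 (-0.65) did not.

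Genes of protein synthesis and RNA processing rose more often than they fell, mostly by less than 1. Of the aminoacyl-tRNA synthetases' 36 tested members 21 were called higher and 8 lower (median 0.25), with 0 and 0 in the additive model, so that none kept its call there. HARS and KARS, the enzymes for histidine and lysine, rose from 18.8 and 18.8 to 35.8 FPKM (0.89 ± 0.07) and from 51.8 and 50.98 to 94.5 FPKM (0.87 ± 0.06). AARS, the alanine enzyme, fell from 32.97 and 31.97 to 27.2 FPKM (-0.25 ± 0.07). Of the translation factors' 47 tested members 24 were called higher and 10 lower (median 0.18), with 5 and 3 in the additive model. EIF1, which guards start codon choice, rose from 345 and 363 to 629.5 FPKM (0.83 ± 0.06), EIF2B2 from 12.99 and 14.3 to 28.4 FPKM (1.01 ± 0.08) and EIF3F from 88.4 and 86.3 to 178 FPKM (1.02 ± 0.06). Of 12 EIF3 subunits other than EIF3C 9 were called higher and 1 lower, with 0 and 1 in the additive model. Of the splicing factors' 51 tested members 25 were called higher and 12 lower (median 0.06), with 4 and 2 in the additive model. For the SF3A and SF3B subunits, which recognise the branch point, of 9, 7 were called higher and 0 lower, with 0 and 0 in the additive model, and SF3B2 rose from 76.1 and 75.7 to 145 FPKM (0.92 ± 0.06). HNRNPH3 rose from 28.8 and 26.3 to 61.3 FPKM (1.13 ± 0.07), although for the hnRNP genes of 15, 5 were called higher and 6 lower, with 2 and 2 in the additive model. The RNA polymerase subunits were near the background, with 10 higher and 8 lower of 30. POLR3GL and POLR3D, subunits of polymerase III, rose from 7.53 and 8.03 to 22.3 FPKM (1.41 ± 0.09) and from 17.98 and 17.7 to 40.7 FPKM (1.15 ± 0.07). POLR3K, of the same enzyme, fell from 11.1 and 9.46 to 4.63 FPKM (-1.0 ± 0.11). EIF1, EIF2B2 and HNRNPH3 passed in the additive model, and HARS (0.59), KARS (0.33), AARS (-0.26), EIF3F (0.56), SF3B2 (0.52), POLR3GL (0.97), POLR3D (0.51) and POLR3K (-0.66) did not.

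Mitochondrial genes outside the respiratory chain rose in part. Of the import and folding list's 36 tested members 14 were called higher and 10 lower (median 0.10), with 2 and 1 in the additive model. TOMM22, the import receptor, rose as described, while TOMM40, the channel it serves, fell from 33.5 and 34.2 to 18.1 FPKM (-0.87 ± 0.07). GRPEL2, a nucleotide exchange factor of the matrix chaperone, rose from 6.25 and 6.42 to 14.2 FPKM (1.05 ± 0.09). TOMM5 fell from 64.3 and 66.2 to 44.7 FPKM (-0.53 ± 0.07), with 13.1 FPKM under the SP1 siRNA. Of the mitochondrial ribosomal proteins' 74 tested members 32 were called higher and 20 lower (median 0.11), with 9 and 1 in the additive model. MRPS34 rose from 27.6 and 26.1 to 73.04 FPKM (1.41 ± 0.07) and MRPL15 from 6.15 and 5.59 to 13.4 FPKM (1.07 ± 0.09), and both were as high with the SP1 siRNA alone, at 78.8 and 14.2 FPKM. In the additive model TOMM40 kept its call, and GRPEL2 (0.74), TOMM5 (-0.03), MRPS34 (0.86) and MRPL15 (0.41) did not.

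Stress and amino acid genes gave a mixed response. Of the iron, heat shock and antioxidant list's 40 tested members 24 were called higher and 11 lower (median 0.21), with 10 and 6 in the additive model. For the heat shock proteins and their co-chaperones, of 13, 11 were called higher and 2 lower, with 7 and 2 in the additive model. HSPA1B, the inducible HSP70, rose from 41.6 and 59.9 to 123 FPKM (1.28 ± 0.13); the controls were 0.51 apart on the log2 scale, and its copy HSPA1A can share reads. DNAJA1 rose from 31.3 and 31.04 to 74.5 FPKM (1.23 ± 0.07). HSP90AB1 and HSPB1 were the members that fell (-1.15 ± 0.05 and -1.08 ± 0.06). TXNRD1, thioredoxin reductase, stood at 133 and 132 FPKM in the controls, 55.02 FPKM with the SP3 siRNA, 134 FPKM with the SP1 siRNA and 52.9 FPKM with both (log2 difference -1.25 ± 0.06, limma adjusted p = 2.11e-10), low in both libraries with the SP3 siRNA only. Of the amino acid transport and one-carbon list's 35 tested members 10 were called higher and 11 lower (median 0.03), with 2 and 4 in the additive model. ASNS, asparagine synthetase, rose from 14.9 and 13.2 to 55.8 FPKM (1.92 ± 0.08) and the transporter SLC38A2 from 114 and 112 to 328 FPKM (1.53 ± 0.06), both known targets of ATF4. DDIT3, another ATF4 target, fell from 51.9 and 65.97 to 28.5 FPKM (-1.01 ± 0.10). ALDH18A1, the first enzyme of proline synthesis, fell from 33.99 and 32.6 to 13.9 FPKM (-1.2 ± 0.07). Of the apoptosis and p53 list's 43 tested members 16 were called higher and 14 lower (median -0.02), with 8 and 4 in the additive model. PMAIP1, which encodes the BH3 protein NOXA, rose from 41.9 and 44.8 to 100.1 FPKM (1.19 ± 0.07), and 4 of 6 caspases were called higher, 2 of them in the additive model. GDF15, a secreted stress factor, fell from 469 and 466 to 267 FPKM (-0.81 ± 0.05). Of the chromatin regulators' 47 tested members 11 were called higher and 18 lower (median -0.09), with 1 and 3 in the additive model. Subunits of the SWI/SNF remodeller went apart: ARID1A fell from 22.7 and 21.96 to 9.34 FPKM (-1.17 ± 0.08), and SMARCE1 and SMARCD1 rose from 28.8 and 27.4 to 63.2 FPKM (1.14 ± 0.07) and from 15.2 and 15.4 to 30.4 FPKM (0.95 ± 0.07). DNMT1, the maintenance DNA methyltransferase, fell by 0.31 ± 0.08. HSPA1B, DNAJA1, TXNRD1, ASNS, ALDH18A1, PMAIP1, GDF15 and ARID1A passed in the additive model, and SLC38A2 (1.05), SMARCE1 (0.60), SMARCD1 (0.56) and DNMT1 (-0.16) did not.

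The SP3 siRNA was also given on top of the SP1 siRNA, and the library with both siRNAs against that with the SP1 siRNA alone shares no library with the comparison above. In that setting limma called 5564 genes (47.5%), 2467 higher and 3097 lower; with median-ratio scaling the split was 3197 higher and 2440 lower. Of the genes called higher with the SP3 siRNA alone, 71.4% had a positive difference when it was added to the SP1 siRNA, against 44.98% of all tested genes, and of the genes called lower 75.1% had a negative one. Negative differences were also the more common ones over all tested genes there, with a median of -0.05. Calls in the same direction were made for 1494 (43.1%) and 1697 genes (45.2%). Calls in the opposite direction were made for 330 (9.5%) and 332 (8.8%). These stand beside 2467 higher and 3097 lower calls among all 11725 tested genes in that setting. The differences were smaller in that setting. Genes called higher by at least 1 had a median of 1.20 with the SP3 siRNA alone and 0.50 when it was added, and those called lower by at least 1 had -1.22 and -0.43. The first values of these pairs are those by which the genes were chosen. Of the 352 genes called higher by at least 1, 249 were called higher and 14 lower when the SP3 siRNA was added. Of the 532 called lower by at least 1, 316 were called lower and 57 higher in that setting. VGF differed by 3.34 ± 0.07 when the SP3 siRNA was added, SCG2 by 2.05 ± 0.11, RGS2 by 1.99 ± 0.07 and CPA4 by 1.34 ± 0.07. The matching falls were -1.63 ± 0.12 for SRPX, -1.69 ± 0.10 for AXL, -1.35 ± 0.09 for KRT7 and -1.41 ± 0.06 for KRT18. These 8 genes are shown as examples that moved the same way with and without the SP1 siRNA, so their agreement follows from the choice. Other genes did not move further. TOMM22 differed by -0.24 ± 0.08, KLF2 by -0.46 ± 0.09, PRDX4 by -0.13 ± 0.08 and KCTD11 by 0.33 ± 0.10 when the SP3 siRNA was added. Among the 15 largest rises 10 were called higher there and 2 lower, and among the 15 largest falls 10 were called lower and 2 higher. The difference between both settings was called for 4629 genes (39.5%).

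**Figure D5:**
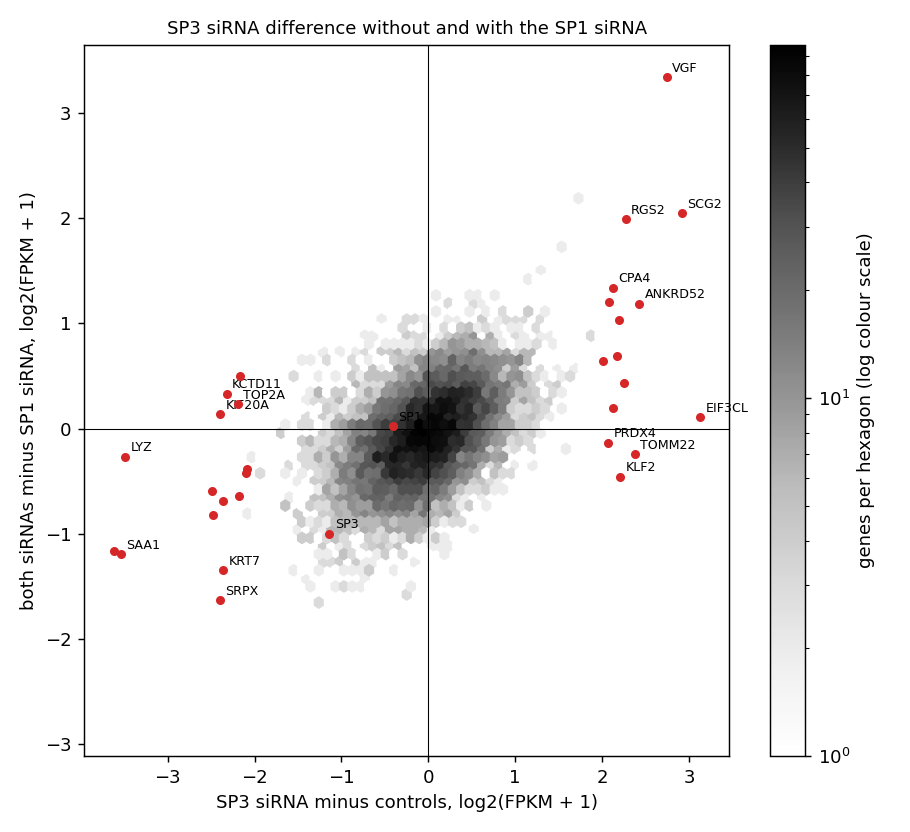
Each tested gene by its log2(FPKM + 1) difference with the SP3 siRNA against the controls (x axis) and with both siRNAs against the SP1 siRNA alone (y axis), as hexagons shaded by gene number on a log colour scale; the axes share no library. Red points are SP1, SP3 and the 30 largest rises and falls: VGF, SCG2 and RGS2 lie far from 0 on both axes, while TOMM22, PRDX4 and KIF20A lie near 0 on the y axis.

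Set directly against the SP1 siRNA library, the SP3 siRNA library differed for 7347 genes (62.7%), 3103 higher and 4244 lower by limma. With median-ratio scaling the split was 4101 higher and 3251 lower, and the median over all genes moved by 0.14, so differences of that size in either direction are not read here. Several genes stood on opposite sides of the controls. RGS2 was higher with the SP3 siRNA than with the SP1 siRNA by 3.60 ± 0.07 (limma adjusted p = 6.14e-14) and VGF by 3.47 ± 0.07 (6.14e-14), with the SP1 siRNA library below both controls for each. AKAP12 was lower by 2.73 ± 0.07 (4.67e-13) and TOMM40 by 1.55 ± 0.08 (5.66e-10), with the SP1 siRNA library above both controls. AXL was lower by 2.02 ± 0.10 and stood within 2 FPKM of the lower control with the SP1 siRNA. TXNRD1 and IGFBP2, lower by 1.26 ± 0.07 and 1.30 ± 0.08, also kept the control level with the SP1 siRNA, at 134 FPKM against 133 and 132 FPKM and at 75.2 FPKM against 74.8 and 80.1 FPKM. The libraries with single siRNAs were close for other genes. The difference was 0.00 ± 0.09 for KLF2, 0.02 ± 0.08 for HDAC1, 0.02 ± 0.06 for CLDN4 and -0.04 ± 0.09 for ITGB5. All of these had moved away from the controls in both libraries. The controls are shared, so anything particular to them enters both differences alike.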

How the data were processed

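The authors deposited 1 table of FPKM values per gene symbol for each library, and per the submitters' processing notes the tools were HTSeq 0.9.1, Cufflinks 2.2.1, HISAT2 2.0.5 and Trimmomatic 0.36, with no roles stated. The genome build, annotation and strand setting are not given here, so overlapping and antisense genes cannot be told apart. Whole reads could be recovered for 17125 of 17125 genes above 0 (tolerance 0.02 reads) and gave the depths; 1 added test used them.

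Differences were tested with limma 3.58.1 (R 4.3.3) on log2(FPKM + 1), which understates changes at low levels, over 11725 genes with at least 1 FPKM in a library. The fit had 1 mean per group over 5 libraries and 1 residual degree of freedom, between the controls. To this limma added 13.95 prior degrees of freedom from the spread shared across genes. P-values were Benjamini-Hochberg adjusted over all tested genes, and the threshold was 0.05. The fit was also run on simulated data in which all libraries had the same spread. That run holds nothing on how SP3 siRNA libraries would vary.

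Named genes were SP1, SP3, the 15 largest called rises and falls (mean of at least 5 FPKM, same sign against each control), and per list its first member and up to 4 called members with the largest differences; other genes were chosen after their values were seen. Some genes picked by this rule are not reported here. The comparison and all lists were chosen with earlier results of these data known. The list of nuclear retained RNAs matched no symbol. Promoter windows came from RefSeq tables (GRCh38.p14).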

Additional observations from a re-analysis of the deposited data

Results flagged for a closer look

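The effect of the SP3 siRNA was compared between cells without and with the SP1 siRNA for SP1, SP3 and the 30 largest rises and falls. The value given is the difference with the SP1 siRNA minus the difference without it, on the log2(FPKM + 1) scale, tested as an interaction in limma. It passed the threshold for 31 of 32 genes, with an adjusted p of at most 0.0317, in a comparison that called 39.5% of all tested genes. The 30 genes had been picked for a large difference without the SP1 siRNA, so smaller differences with it are favoured by the choice.

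Among the rises the value was -3.02 for EIF3CL, -0.87 for SCG2, -1.24 for ANKRD52, -0.28 for RGS2, -1.83 for TMEM158, -1.17 for CCNE1, -1.49 for GTF3C6, -0.79 for CPA4, -1.93 for AMN1, -0.88 for SFN and -1.37 for SNCG. VGF was the rise that was larger with the SP1 siRNA present, by 0.59. Among the falls the value was 2.46 for S100A9, 2.35 for SAA1, 3.22 for LYZ, 1.89 for PFKFB4, 1.65 for HPSE and 0.77 for SRPX. It was 1.68 for PLOD2, 1.02 for KRT7, 1.54 for CDCP1, 1.67 for CA2 and 1.70 for TMEM97. With the SP1 siRNA alone S100A9, SAA1, LYZ and HPSE already stood at 1.24, 3.47, 0.258 and 1.53 FPKM. On this scale they could not fall as far again, so positive values were favoured for them.

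The effect with the SP1 siRNA was called in the opposite direction for 4 genes, TOMM22 (-2.62), KLF2 (-2.67), KCTD11 (2.65) and KIF18B (2.67). For SP1 itself (0.43), PRDX4 (-2.2), KIF20A (2.53) and TOP2A (2.42) it was not called with the SP1 siRNA present, at 0.02 ± 0.08, -0.13 ± 0.08, 0.14 ± 0.15 and 0.23 ± 0.12. For SP3 the interaction was 0.14 ± 0.14 and missed the threshold (limma adjusted p = 0.456).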

How the results depend on the processing

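Each comparison was repeated with another pseudocount, filter and scaling, and with limma-voom on recovered reads; the SP3 siRNA against the controls alone was also repeated with 3 libraries and in the additive model. Limma-voom and a count over any listed start were chosen after seeing the data. No paired analysis was possible because each knockdown group held 1 library without a replicate number. Of 36 alternative counts of genes 22 were within 1.5 times the main count and 14 were not.

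The count of 7222 calls with the SP3 siRNA was 1294 without the filter on low values, 1802 in the additive model, and 477 to 684 in that model without 1 control; limma-voom gave 7387. Without the filter 947 genes were called for the SP3 siRNA added to the SP1 siRNA, 2082 for the SP3 against the SP1 siRNA and 814 for the interaction. Genes 2-fold higher than each control numbered 426 at a mean of at least 1 FPKM, 928 at 1.5-fold and 15 at 4-fold; those lower numbered 850, 973 and 34, and 226 at a mean of at least 10 FPKM. Without 1 control, 318 to 343 were higher and 427 to 443 lower. The longer box GGGGCGGGG was found in 27.6% of genes called higher, 33.6% of those lower and 30.4% of those not called, and over any listed start GGGCGG was found in 73.5%, 80.3% and 76.0%, so the order was kept.

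Of the 163 named genes, 71 kept their call status and 92 lost it without the filter, 80 kept and 82 lost it in the additive model, and all 163 kept it with a pseudocount of 0.1 and with limma-voom. LAMP1 was 0.117 in the additive model and 0.145 and 0.201 there without control 1 and control 2. TOMM5 was 0.0440 and 0.0639 in the latter fits, and the median of the ERBB, insulin and IGF list -0.0187 and -0.0256. Of 34 list medians 11 changed sign in an alternative, 10 of them with a main value under 0.1 from 0; the SP and KLF median was 0.18 at a mean of at least 5 FPKM, and that of keratins -0.07 in the additive model. The cause was not tested; the fits without 1 control have fewer samples. In those fits the lone control is assumed to vary like the other groups. Depth limits genes near 0, where 1 read decides the level.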
